A study of Sus scrofa with 6 samples.

Results

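The genes described are the S100 calcium-binding protein family in swine aorta. Of 10 S100 symbols looked up in the symbol column of the gene table, 7 were found among 22861 genes: S100A1, S100A4, S100A8, S100A9, S100A10, S100A11 and S100A12. The other 3, S100A6, S100A13 and S100B, are not analysed here. The genes were chosen by symbol, with the counts and fits of an earlier analysis of the same 6 pools known, so the values below describe them and are not independent tests. All 7 had at least 1 count, and 4 of them, S100A1, S100A4, S100A10 and S100A11, passed the filter on low counts and entered the fit. A further 9 S100 symbols in the table were used for comparison.

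The S100 proteins are small calcium-binding proteins, each with a pair of EF-hand motifs, that usually work as dimers. Inside the cell they change shape when calcium binds and then attach to partners such as annexins, myosin or calcium channels. Some members are also released and act on cell-surface receptors, among them the receptor for advanced glycation end products (RAGE, gene AGER) and Toll-like receptor 4 (TLR4). S100A8, S100A9 and S100A12, the calgranulins, are known as abundant proteins of neutrophils and monocytes. S100A4, once described as a fibroblast marker, is also known from macrophages and lymphocytes. In the diseased artery the family has been followed as a sign of inflammation.

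The tissue was abdominal aorta of Wisconsin Miniature Swine (WMS). Lesion pools 1, 2 and 3 were made from RNA of aortas with atherosclerotic lesions of 11 WMS animals of the familial hypercholesterolaemia (FH) line, which inherits high blood cholesterol. Lesion-free pools 4, 5 and 6 were made from RNA of aortas without lesions of 11 normal WMS animals. Each pool mixes animals, and the labels give neither which animals nor their age, sex or diet, so the spread between pools is not the spread between animals. Every lesion pool is of the FH line and every lesion-free pool of the normal line, so effects of lesion and line cannot be told apart. Levels are given as CPM, the count per scaled library size, and positive log2 folds are higher in lesion pools. Total counts lay between 4650176 in lesion pool 1 and 11442433 in lesion pool 3. A floor of 3 counts, which covers counting error only, stood at 0.576 CPM in lesion pool 1 and at 0.268 to 0.359 CPM elsewhere. ACTA2, the smooth muscle actin that defines the medial layer of an artery, stood between 12751 and 15644 CPM in lesion pools and between 22271 and 24989 CPM in lesion-free pools.

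S100A4 was the member with a clear difference. This calcium-binding protein attaches to non-muscle myosin and is linked to cell migration. It had 234 CPM in lesion pool 1, 232 CPM in lesion pool 2 and 423 CPM in lesion pool 3, against 13.3, 7.19 and 8.33 CPM in lesion-free pools 4, 5 and 6. Each lesion pool lay far above each lesion-free pool, and the lowest lesion value was many times the highest lesion-free value. Lesion pools averaged 296 ± 109 CPM (SD, n = 3), against 9.59 ± 3.23 CPM for lesion-free pools (SD, n = 3). The fitted fold was 30.3 (95% interval 15.96 to 57.5), or 4.92 on the log2 scale (SE 0.43, limma adjusted p = 2.53e-05). Among 11673 genes tested with limma it held rank 4 by p and rank 65 by size of rise. Taken one lesion pool at a time, S100A4 was 4.66, 4.65 and 5.51 log2 units above the lesion-free mean in pools 1, 2 and 3. The log2 fold stayed between 4.63 and 5.18 over the 12 alternative settings, and the largest adjusted p among them was 8.53e-05.

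Of the 4 listed members tested, 1 rose, 0 fell and 3 were not called at an adjusted p of 0.05. Over all genes tested, 0.968% were called higher and 0.0771% lower, and calls counted in the lists below are read beside these shares. In S100A4 the groups did not overlap, with lesion pools higher, as in 10.4% of all genes tested, while 19.4% did not overlap in either direction. The other 3 members overlapped. The members' median log2 fold was 0.35, set against -0.0031 over all genes tested.

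**Figure D1:**
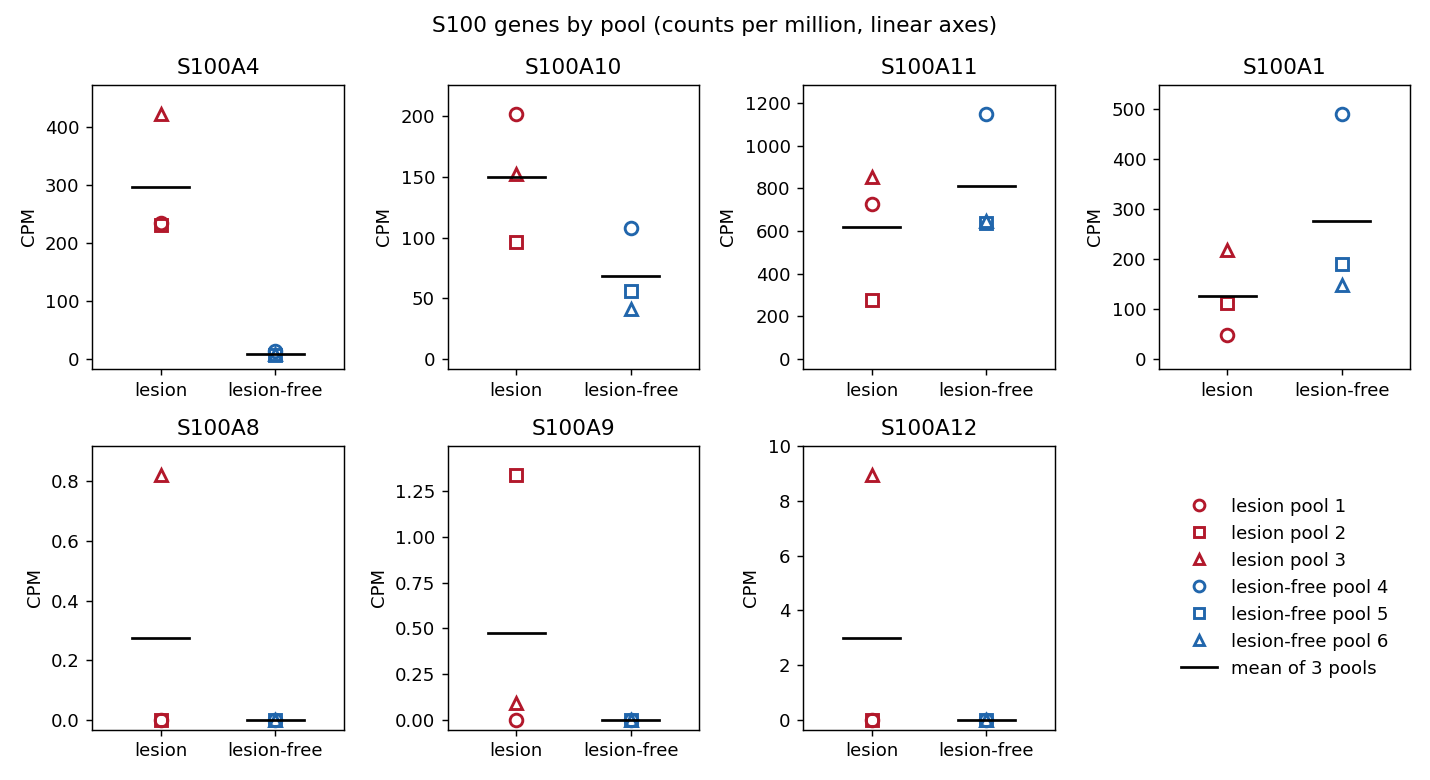
CPM of the 7 listed S100 genes found, on linear axes that differ by panel, with lesion pools at left in red and lesion-free pools at right in blue. Each marker is a pool and each bar the mean of 3 pools. S100A4 separates the groups, at 232 to 423 CPM in lesion pools against 7.19 to 13.3 CPM in lesion-free pools, and the calgranulins have counts in only 1 or 2 lesion pools.

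S100A10 and S100A11 are the members known for binding annexins, the proteins that dock on membranes when calcium rises. S100A10, also called p11, forms a tetramer with annexin A2 (ANXA2) that holds plasminogen and its activator at the cell surface. It had 202, 96.7 and 152 CPM in lesion pools 1, 2 and 3, against 108, 56.2 and 41.4 CPM in lesion-free pools 4, 5 and 6. Lesion pools were mostly higher, but lesion pool 2 lay below lesion-free pool 4, so the groups overlapped. The fitted fold was 2.26 (95% interval 1.31 to 3.92, not adjusted for the number of genes), and the adjusted p over all genes tested was 0.212 by limma. Without lesion-free pool 4 the log2 fold was 1.56 and the gene was called (limma adjusted p = 0.0377), as it was with sample quality weights (limma adjusted p = 0.0497).

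ANXA2 itself had 630, 639 and 748 CPM in lesion pools 1, 2 and 3, against 753, 527 and 553 CPM in lesion-free pools 4, 5 and 6. These values overlap, and the log2 fold was 0.15 (95% interval -0.41 to 0.72). The ratio of S100A10 to ANXA2 counts within a pool was 0.320, 0.151 and 0.203 in lesion pools, against 0.143, 0.107 and 0.0748 in lesion-free pools. By this ratio, which needs no scaling between libraries, every lesion pool was above every lesion-free pool, although lesion pool 2 and lesion-free pool 4 were close. Its geometric mean was 2.05 times as high in lesion pools.

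S100A11 binds annexin A1 (ANXA1) and takes part in membrane repair. It had 726, 278 and 854.5 CPM in lesion pools 1, 2 and 3, against 1148, 636 and 648 CPM in lesion-free pools 4, 5 and 6. Lesion pools averaged 619 ± 303 CPM (SD, n = 3) and lesion-free pools 811 ± 292 CPM (SD, n = 3). The spread within each group was wider than the gap between these means, with lesion pool 2 lowest and lesion-free pool 4 highest. The log2 fold was -0.48 (95% interval -1.35 to 0.39, limma adjusted p = 0.707), and without lesion pool 2 it was 0.011. ANXA1 had 293, 135 and 149 CPM in lesion pools, against 91.7, 78.6 and 76.2 CPM in lesion-free pools. Its groups did not overlap, but it was not called (log2 fold 1.13, limma adjusted p = 0.129). There were 2.48, 2.05 and 5.74 counts of S100A11 for each count of ANXA1 in lesion pools, against 12.5, 8.09 and 8.51 in lesion-free pools.

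**Figure D2:**
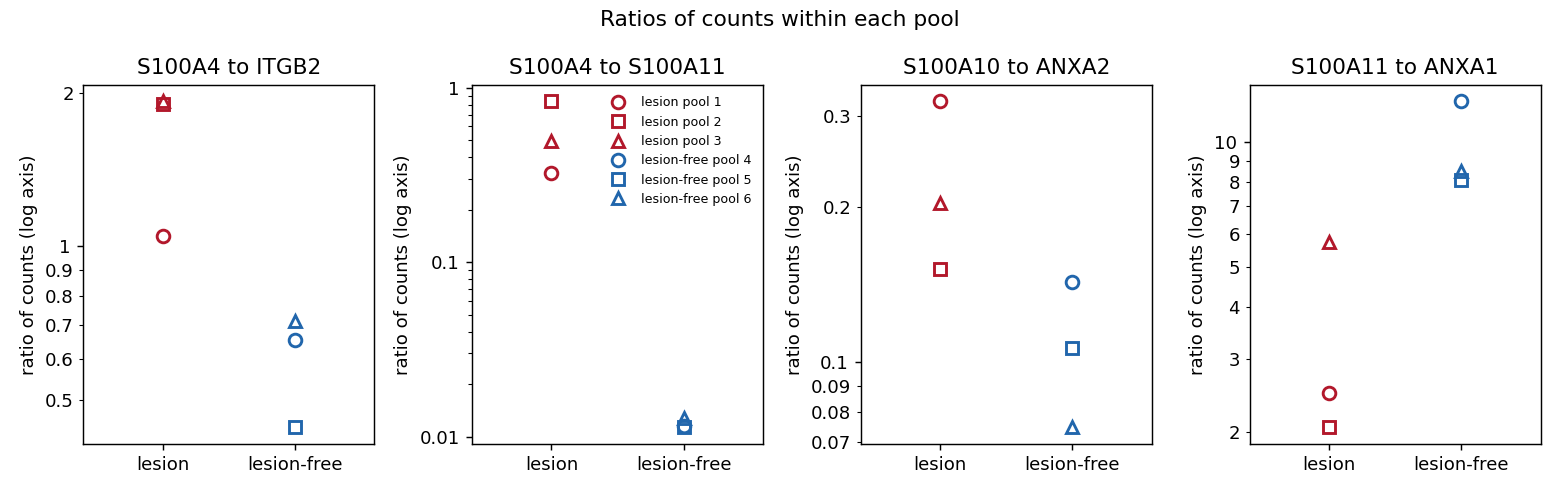
Ratio of the counts of 2 genes within the same pool, on log axes, with lesion pools at left in red and lesion-free pools at right in blue. Every lesion pool lies above every lesion-free pool for S100A4 to ITGB2, S100A4 to S100A11 and S100A10 to ANXA2, and below for S100A11 to ANXA1.

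S100A1, best known from heart and skeletal muscle, binds the ryanodine receptor and the calcium pump of the sarcoplasmic reticulum. It had 48.6, 112 and 219 CPM in lesion pools 1, 2 and 3, against 489, 190 and 148 CPM in lesion-free pools 4, 5 and 6. Lesion pool 3 lay above lesion-free pools 5 and 6, so the groups overlapped. The log2 fold was -1.12 (SE 0.58, 95% interval -2.44 to 0.19, limma adjusted p = 0.532). The gene was not called in any of the 12 alternatives, and its log2 fold ran from -1.63 to -0.48 over them. Of 6 smooth muscle markers tested, 0 rose and 2 fell, CNN1 and DES, and the summed level of the list was 29998 to 43299 CPM in lesion pools against 69500 to 79505 CPM in lesion-free pools. Per count of ACTA2, S100A1 stood at 0.00381 to 0.014 in lesion pools and at 0.00593 to 0.0196 in lesion-free pools, which overlap. The part of smooth muscle content in the S100A1 values was not tested. In bulk tissue, fewer cells of a type and less RNA per cell cannot be told apart.

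Of 8 tested genes of calcium cycling, the setting in which S100A1 acts in muscle, 0 rose and 0 fell, and their median log2 fold was 0.37. RYR2, the cardiac ryanodine receptor, had 36.3, 59.5 and 63.4 CPM in lesion pools, against 30.4, 78.5 and 79.0 CPM in lesion-free pools. ATP2A2, the calcium pump SERCA2, had 42.1, 29.4 and 27.5 CPM in lesion pools, against 8.52, 25.6 and 24.6 CPM in lesion-free pools, with no overlap but no call (limma adjusted p = 0.507). PLN, the inhibitor of that pump, had 78.4, 27.8 and 28.5 CPM in lesion pools, against 37.3, 74.3 and 59.8 CPM in lesion-free pools. The values of RYR2 and PLN overlap, and PLN was not called (limma adjusted p = 0.632).

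Counts of the calgranulins were found in only 1 or 2 lesion pools and in no lesion-free pool. S100A8 and S100A9 pair as calprotectin, which binds zinc and calcium and is released by activated neutrophils and monocytes. S100A8 had 0, 0 and 9 counts in lesion pools 1, 2 and 3, and S100A9 had 0, 15 and 1. Both genes had 0 counts in each lesion-free pool. Lesion pool 3 held all 9 counts of S100A8 and 1 of S100A9, and lesion pool 2 held the other 15 of S100A9. Counts this low do not show how the pair is divided between pools. S100A12, also called calgranulin C and a ligand of RAGE, had 98 counts in lesion pool 3, or 8.94 CPM, and 0 counts in the other 5 pools. Where a gene is at 0, a level up to the floor of 3 counts could not be detected.

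These 3 members failed the filter on low counts and have no test in the main fit. With no such filter, none was called (limma adjusted p = 0.747 for S100A8, 0.609 for S100A9 and 0.637 for S100A12). CD68, a lysosomal protein of macrophages, had 169, 129 and 371 CPM in lesion pools, against 17.6, 12.6 and 8.84 CPM in lesion-free pools. Of 12 tested macrophage and monocyte markers, 10 rose and 0 fell, with a median log2 fold of 3.05, and the summed level of the 14 list genes in the table was 1693 to 3729 CPM in lesion pools against 299.6 to 410 CPM in lesion-free pools. The 10 were ITGB2, CD68, CSF1R, MSR1, MPEG1, C1QA, C1QC, AIF1, LYZ and VCAN. LYZ was called narrowly (limma adjusted p = 0.0488). VCAN had 44.0, 79.7 and 103 CPM in lesion-free pools, so it was not confined to lesion pools. Those not called were CD14 and CCR2. CD14, the monocyte co-receptor of TLR4, stood at 72.6, 53.4 and 108 CPM in lesion pools and 80.0, 41.5 and 37.1 CPM in lesion-free pools. CCR2, the monocyte receptor of CCL2, had 0, 29 and 39 counts in lesion pools, against 17, 14 and 21 in lesion-free pools. The scavenger receptors CD163 and MARCO of the same list were too low to be tested. CD163 had 0, 0 and 6 counts in lesion pools against 0, 0 and 7 in lesion-free pools, and MARCO had 0, 0 and 3 in lesion pools against 0, 0 and 4 in lesion-free pools.

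Most neutrophil list genes found by symbol were at or near 0. Of 16 genes on the list, 10 were found, and 6 of these had 0 counts in all pools: MPO, PRTN3, CAMP, MMP8, PADI4 and TREM1. CSF3R, CXCR1, CXCR2, FCGR3A, FCGR3B and CEACAM8 were not found by symbol, so the list gives an incomplete view of neutrophils. ELANE, neutrophil elastase, had 0, 1 and 10 counts in lesion pools 1, 2 and 3, and LTF, lactoferrin, had 1 count in lesion pool 3. Neither had a count in a lesion-free pool. The remaining genes found, which other cells of the artery also make, were MMP9, a gelatinase, at 267, 77.5 and 269 CPM in lesion pools against 3.88, 0 and 2.13 CPM in lesion-free pools (limma adjusted p = 0.151, not called), and LCN2, a siderophore-binding protein, whose groups overlapped. Lesion pool 3, which held the S100A12 and S100A8 counts, also held 11 counts of these neutrophil genes other than MMP9 and LCN2, and lesion pool 2 held 1.

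Regulators reported to act on S100A8 and S100A9 were measured as a list of 9 tested genes, of which 1 rose and 0 fell, with a median log2 fold of 0.17. SPI1, the myeloid transcription factor PU.1, had 50.7, 55.9 and 105 CPM in lesion pools 1, 2 and 3, against 23.3, 11.4 and 7.82 CPM in lesion-free pools 4, 5 and 6. The groups did not overlap, and its log2 fold was 2.42 (SE 0.45, limma adjusted p = 0.0141). The call was lost without lesion-free pool 5 (limma adjusted p = 0.0607) or 6 (limma adjusted p = 0.0668). CEBPB, a factor of monocyte and stress responses, had 21.1, 101 and 81.6 CPM in lesion pools, against 147, 169 and 124 CPM in lesion-free pools. It was lower in each lesion pool but not called (log2 fold -1.25, limma adjusted p = 0.31), and the same symbol is carried by a further entry with counts in lesion pool 1 alone.

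Among receptors of released S100 proteins, AGER had 5 counts in lesion pool 2 and 0 in every other pool. Of 9 tested genes on the receptor list, 2 rose and 0 fell, CD36 and IL10RA, and the median log2 fold was 0.59. CD36, a scavenger receptor for oxidised lipoprotein and a reported binding partner of the S100A8 and S100A9 pair, had 142, 45.5 and 40.7 CPM in lesion pools 1, 2 and 3, against 2.80, 8.03 and 6.502 CPM in lesion-free pools 4, 5 and 6. Lesion pool 1 was the highest by far, and the groups did not overlap. Its log2 fold was 3.51 (SE 0.73, limma adjusted p = 0.0361). This call was lost without lesion-free pool 4, 5 or 6 (limma adjusted p = 0.129, 0.109 and 0.11).

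IL10RA, a chain of the interleukin-10 receptor, had 68.6, 48.4 and 60.4 CPM in lesion pools, against 8.95, 13.1 and 11.6 CPM in lesion-free pools. Its log2 fold was 2.38 (SE 0.37, limma adjusted p = 0.0037), and it was called under every alternative. TLR4, the receptor of S100A8 and S100A9 on myeloid cells, had 53.2, 17.9 and 15.96 CPM in lesion pools, against 3.45, 7.31 and 2.54 CPM in lesion-free pools. The groups did not overlap, but it was not called in the fit (log2 fold 2.51, 95% interval 0.94 to 4.09, limma adjusted p = 0.171) or in any alternative.

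Downstream of RAGE and TLR4, 0 of 10 tested genes rose and 0 fell, with a median log2 fold of 0.35. CCL2, the monocyte chemokine, had 32.7, 18.6 and 33.0 CPM in lesion pools, against 13.9, 8.87 and 7.21 CPM in lesion-free pools, and was not called (limma adjusted p = 0.183). RELA, a subunit of NF-kappa-B, had 104, 163 and 164 CPM in lesion pools, against 207, 209.7 and 212 CPM in lesion-free pools. It was lower in each lesion pool but not called (limma adjusted p = 0.471). TNF, IL6 and IL1B, cytokines of this pathway, were too low to be tested, with at most 22 counts in any pool.

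Of 21 tested intracellular partners, 1 rose and 0 fell, with a median log2 fold of 0.26. The gene that rose was CYBB, the catalytic chain of the phagocyte oxidase, to which the S100A8 and S100A9 pair is known to deliver arachidonic acid. CYBB had 94.5, 72.6 and 102 CPM in lesion pools, against 4.96, 5.39 and 3.86 CPM in lesion-free pools (log2 fold 4.24, SE 0.52, limma adjusted p = 0.000523). MYH9, the non-muscle myosin chain that S100A4 binds, had 1285, 2794 and 2964 CPM in lesion pools, against 1033, 2291 and 2559 CPM in lesion-free pools. These groups overlap, and the log2 fold was 0.26 (limma adjusted p = 0.855). FGF1, a growth factor released with S100A13, had 123, 90.0 and 121 CPM in lesion pools, against 93.6, 59.4 and 104 CPM in lesion-free pools, and was not called (limma adjusted p = 0.662). None of 7 tested genes of the S100A10 and annexin A2 plasmin system was called. PLAU, the urokinase activator of plasminogen, came to 35.6, 22.2 and 30.1 CPM in lesion pools, against 6.36, 14.6 and 13.2 CPM in lesion-free pools (limma adjusted p = 0.192).

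**Figure D3:**
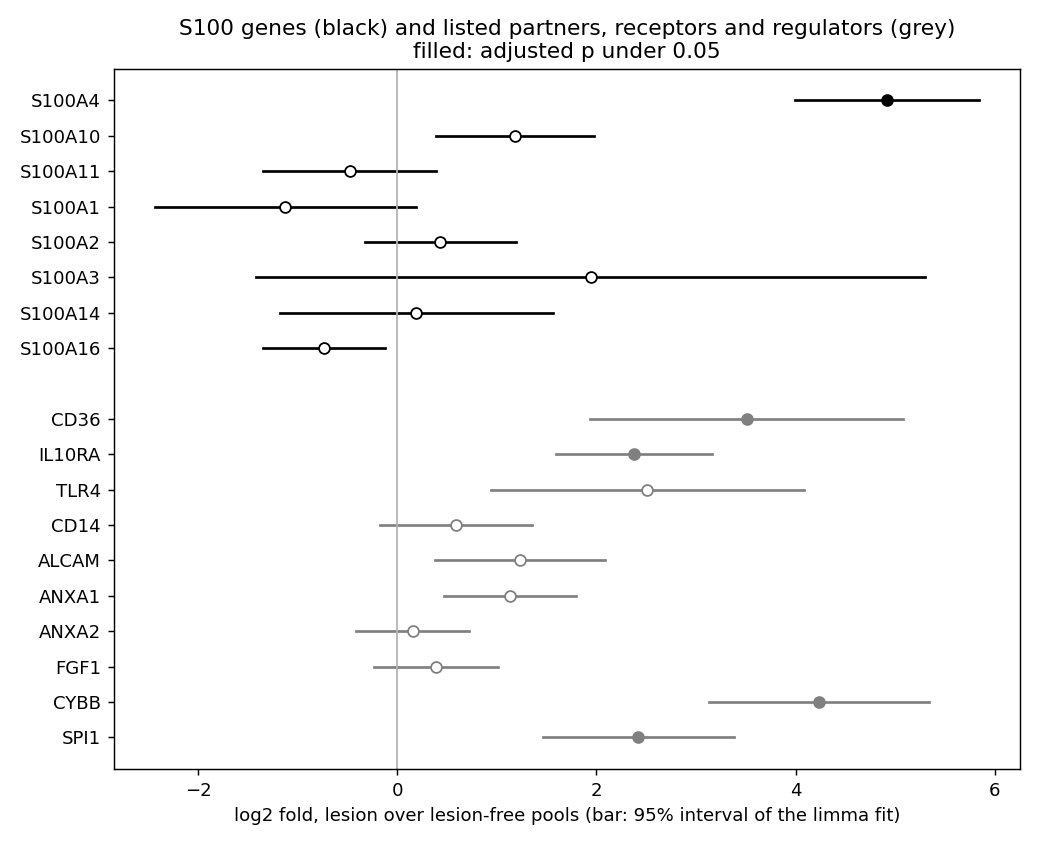
Log2 fold of lesion over lesion-free pools for the 8 S100 genes tested (black) and for receptors, partners and a regulator of the family (grey). Bars are 95% intervals of the limma fit, not adjusted for the number of genes, and filled points are past an adjusted p of 0.05. S100A4 is the filled S100 gene, at 4.92, and the other 7 are open.

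The remaining S100 genes gave no call. Of the 9 other S100 symbols, 5 had counts, 4 were tested, 0 rose and 0 fell. S100A16, a widely expressed member, had 126, 154 and 212 CPM in lesion pools, against 332, 280 and 206 CPM in lesion-free pools. Lesion pool 3 lay just above lesion-free pool 6, and the log2 fold was -0.74 (95% interval -1.35 to -0.12, limma adjusted p = 0.354). S100A2, known from epithelia, had 78.2, 56.6 and 77.7 CPM in lesion pools, against 92.7, 39.7 and 36.9 CPM in lesion-free pools, which overlap. S100A14, another epithelial member, had 14.4, 7.32 and 3.47 CPM in lesion pools, against 6.25, 3.95 and 5.69 CPM in lesion-free pools. S100A3, a protein of the hair cuticle, had at most 42 counts in any pool. S100A5 had 2 counts in lesion pool 2 alone, and S100A7, S100A15A, S100G and S100Z had 0 counts in all pools.

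S100A4 is flanked by S100A3 and S100A5 in the gene order of RefSeq's Sscrofa11.1 assembly, where most S100A genes form a cluster. S100A3 stood at 3.07, 1.34 and 3.83 CPM in lesion pools against 2.05, 0 and 1.63 CPM in lesion-free pools, and its log2 fold was 1.94 (SE 1.57, limma adjusted p = 0.696). S100A3 was thus not called with S100A4, and S100A5, with 2 counts in lesion pool 2 alone, was too low to be tested. In the same order S100A11 and S100A10 lie side by side, and in these pools their fitted folds had opposite signs, neither of them called. S100A12 lies between S100A8 and S100A9.

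The make-up of S100 counts within a pool needs no scaling between libraries. Shares are of the summed counts of the 16 S100 genes found by symbol. They leave out S100A6, S100A13 and S100B. The table gives 7481 genes by identifier alone, of which 1723 were named from the reference. S100A6, S100A13 and S100B were not among those named, but could be among the rest. S100A4 made up 16.4%, 24.7% and 21.6% of these counts in lesion pools 1, 2 and 3, against 0.605%, 0.592% and 0.76% in lesion-free pools 4, 5 and 6. S100A10 made up 14.1%, 10.3% and 7.79% in lesion pools, against 4.91%, 4.63% and 3.77% in lesion-free pools. S100A1 made up 3.39%, 11.9% and 11.2% in lesion pools, against 22.3%, 15.7% and 13.5% in lesion-free pools. In each of these 3 genes the shares of the groups did not overlap, and since shares sum to the whole, a larger share of S100A4 lowers those of the others. S100A11 took 50.7%, 29.6% and 43.7% in lesion pools, against 52.4%, 52.4% and 59.1% in lesion-free pools, which did not overlap either. Shares are of counts, which longer transcripts gather more of, so they order pools and not genes.

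**Figure D4:**
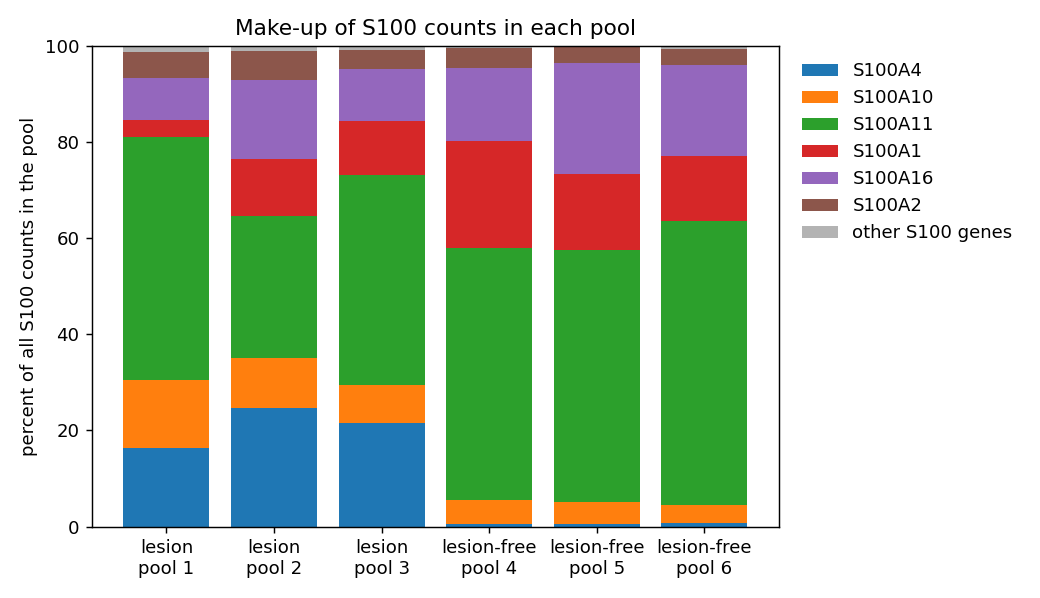
Share of each S100 gene in the summed counts of the S100 genes found by symbol in a pool, as stacked bars from 0 to 100 percent, with the 3 lesion pools at left and the 3 lesion-free pools at right. S100A4, at the base of each bar, takes 16.4% to 24.7% in lesion pools and under 1% in lesion-free pools.

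Per count of S100A11, S100A4 had 0.323, 0.836 and 0.4945 counts in lesion pools, against 0.0116, 0.0113 and 0.0129 in lesion-free pools. This ratio, chosen after its values were seen, varied little among lesion-free pools. Per count of ITGB2, the beta-2 integrin chain shared by leukocytes and the gene named in the title of the series, S100A4 had 1.05, 1.90 and 1.93 counts in lesion pools, against 0.654, 0.441 and 0.713 in lesion-free pools. The groups did not overlap, and the geometric mean was 2.65 times as high in lesion pools. Per count of CD68, also chosen after the values were seen, S100A4 had 1.39, 1.80 and 1.14 counts in lesion pools, against 0.755, 0.571 and 0.943 in lesion-free pools. No test was made of these ratios. ITGB2 itself had 224, 122 and 219 CPM in lesion pools, against 20.3, 16.3 and 11.7 CPM in lesion-free pools, a fitted fold of 11.6. A gene that rises less than ITGB2 is lower per count of it, whether or not its own level falls. The other tested members were thus lower per count of ITGB2, with no overlap. S100A10 had 0.694 to 0.9004 counts per count of ITGB2 in lesion pools against 3.45 to 5.31 in lesion-free pools. S100A11 had 2.27 to 3.9 in lesion pools against 39.0 to 56.6 in lesion-free pools, and S100A1 had 0.217 to 0.998 in lesion pools against 11.7 to 24.1 in lesion-free pools.

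Of 12 macrophage and monocyte markers tested, 10 rose in the same pools as S100A4, as given beside the calgranulins. Of 9 adventitial fibroblast markers tested, 0 rose and 0 fell, their median log2 fold was -0.34, and their summed level was 1787 to 2130 CPM in lesion pools against 1864 to 2514 CPM in lesion-free pools. In 3 of the 9 every lesion pool lay above every lesion-free pool, as in 10.4% of all genes tested. In 1, the proteoglycan DCN, every lesion pool lay below, as in 1052 of the 11673 genes tested. PDGFRA, a growth factor receptor, had 13.3, 11.6 and 7.85 CPM in lesion pools, against 0, 5.63 and 7.72 CPM in lesion-free pools. The proteoglycan LUM had 403, 185 and 179.9 CPM in lesion pools, against 125, 137 and 123 CPM in lesion-free pools. The collagen COL14A1 had 561, 599 and 605 CPM in lesion pools, against 347, 360 and 410 CPM in lesion-free pools. None of these 3 was called (limma adjusted p = 0.458, 0.283 and 0.329). T cell markers were low, with a summed level of 9.37 to 15.5 CPM in lesion pools against 0 to 6.9 CPM in lesion-free pools, and 0 of 3 tested were called. Of 7 tested endothelial markers, 0 rose and 0 fell, with a summed level of 507 to 660 CPM in lesion pools against 353 to 449 CPM in lesion-free pools. The part of any of these cell types in the difference of S100A4 was not tested.

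Genes with the pattern most like each member over the 6 pools were found by the root mean square difference of centred log2 CPM, among 8879 candidate genes. Nearest to S100A4 were SELPLG, the leukocyte ligand of P-selectin (difference 0.26 log2 units), and LCP1, the leukocyte actin-bundling protein (0.43), where the median candidate differed by 2.54. SELPLG had 49.2, 47.1 and 89.8 CPM in lesion pools, against 2.91, 1.80 and 2.84 CPM in lesion-free pools. Nearest to S100A10 were LGALS8, a galectin (0.21), and CST3, the protease inhibitor cystatin C (0.23), with a median of 0.93. Nearest to S100A1 were SCNN1D, a sodium channel subunit (0.27), and TRAPPC5, a vesicle transport protein (0.30), with a median of 1.10. S100A11 lay closest to CYTB, cytochrome b (0.08), and COX8A, a subunit of cytochrome c oxidase (0.11), with a median of 0.80. CYTB had 4499, 1592 and 5259 CPM in lesion pools, against 6253, 4101 and 3934 CPM in lesion-free pools, and thus shared the low value of lesion pool 2 and the high value of lesion-free pool 4.

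Lesion-free pool 4 stood apart from pools 5 and 6 in this family. In all 8 S100 genes tested it had the highest CPM of the lesion-free pools, as it did in 38.3% of all genes tested. With scaling by the plain library total this held for 7 of the 8, S100A14 being the exception, and for 27.8% of all genes. AHNAK, a very large protein that binds S100A10 and annexin A2, went the other way in that pool. It had 699, 1185 and 822 CPM in lesion pools, against 68.8, 726 and 866 CPM in lesion-free pools 4, 5 and 6. A low value in pool 4 was not particular to AHNAK. SYNPO2 of the smooth muscle list had 531, 2070 and 2128 CPM in lesion-free pools 4, 5 and 6, and MYH9 was also lowest in pool 4. Leaving pool 4 out, the log2 fold of S100A4 remained within the range given above, and S100A10 was called as stated.

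In the isoform table the S100A4 counts came mainly from isoform S100A4-201. It held 96.8%, 86.8% and 96.2% of the gene's counts in lesion pools 1, 2 and 3, against 75.6%, 91.7% and 100% in lesion-free pools 4, 5 and 6. Its level was 224, 204 and 408 CPM in lesion pools, against 10.1, 6.56 and 8.34 CPM in lesion-free pools. The log2 fold was 4.99 (SE 0.48, limma adjusted p = 0.00141), where 0.418% of 12666 isoforms tested were called higher and 0.0316% lower. S100A4-001 was the other tested isoform, at 0, 29.9 and 16.2 CPM in lesion pools against 2.70, 0 and 0 CPM in lesion-free pools, and was not called (limma adjusted p = 0.704).

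S100A10 and S100A11 each had 2 tested isoforms, none of them called. S100A10-001 held 69.3%, 38.3% and 44.5% of the S100A10 counts in lesion pools, against 42.2%, 36.2% and 45.9% in lesion-free pools. S100A11-001 held 37.7%, 69.2% and 55.8% of the S100A11 counts in lesion pools, against 56.4%, 66.6% and 58.4% in lesion-free pools. In both genes lesion pool 1, the shallowest, stood apart from the others, with the highest share of S100A10-001 and the lowest share of S100A11-001. Because isoform counts are estimates that divide shared reads, such shares carry an error that the table does not record.

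**Figure D5:**
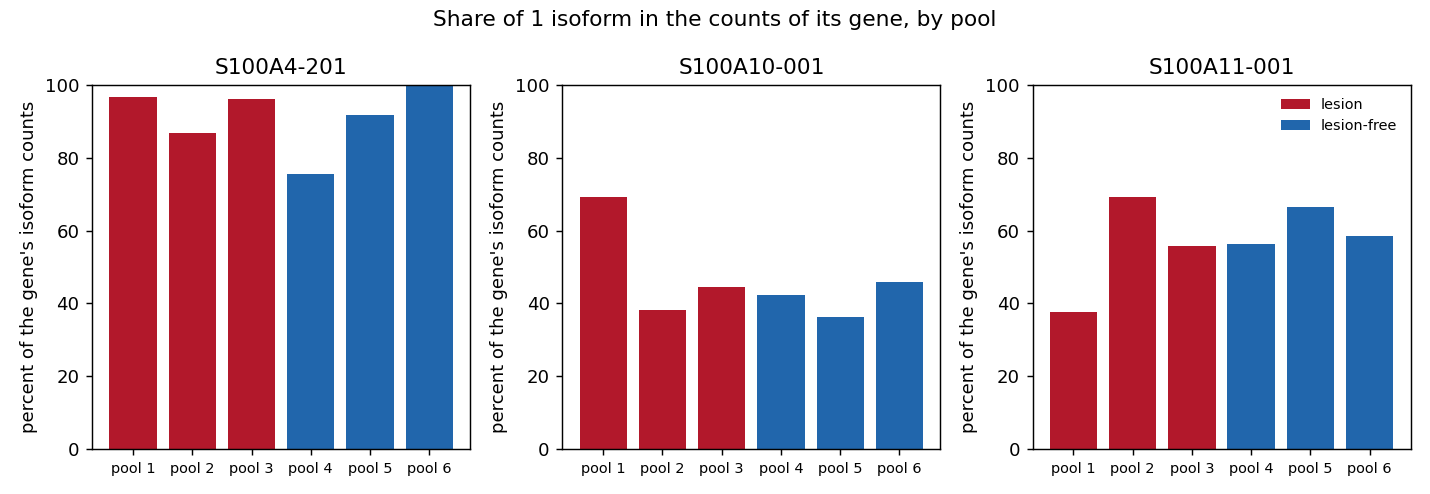
Percent of a gene's isoform counts assigned to S100A4-201, S100A10-001 and S100A11-001 in each pool, with lesion pools 1 to 3 in red at left and lesion-free pools 4 to 6 in blue at right. Lesion pool 1 has the highest share of S100A10-001, 69.3%, and the lowest of S100A11-001, 37.7%.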

How the data were processed

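RNA of pooled swine aorta was sequenced after stranded total RNA library preparation, per the labels' protocols. The authors deposited raw estimated read counts per gene and per isoform for 6 pools, whole numbers written with commas, which were removed. The submitters' processing notes name RSEM 1.3.0 and edgeR without their roles. The aligner, build and annotation are not stated there or in the labels. No negative binomial count model was run. Instead, limma 3.58.1 in R 4.3.3 was used on log2 CPM, with voom weights and robust moderation. The fit covered 11673 genes that had a summed count of 15 or more and reached 1.00 CPM in 3 or more pools. Scaling used TMM factors, with 30% of M and 5% of A trimmed away; the count added by voom was 0.5. The p-values are two-sided and adjusted by Benjamini and Hochberg over all genes or all isoforms tested. Pools of 1 group differed beyond sampling noise (chi-square per degree of freedom 20.7 to 86.9). The fit was tested on simulated data.

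The members and lists were chosen with earlier results of these data known. Named genes were the S100 genes in the table, called genes of the lists of receptors, partners and regulators together with AGER, TLR4, ANXA1, ANXA2 and FGF1, and the 2 genes nearest to each tested member with a symbol and a mean log2 CPM of at least 1. Others named from the lists (MYH9, RYR2, ATP2A2, PLN, CEBPB, PPARG, CCL2, RELA, TNF, IL6, IL1B, PLAU, CD14, CCR2, CD163, MARCO, PDGFRA, LUM, COL14A1, DCN, SYNPO2 and AHNAK) were chosen after their values were seen, as was the comparison of pool 4 with pools 5 and 6. Where a listed symbol stood for several entries, the entry with the most counts was used. The ratios to CD68, S100A11 and ACTA2 were also added after values were seen. No sequences are shown, since none came with the tables used.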

Additional observations from a re-analysis of the deposited data

How the results depend on the processing

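The call of S100A4 and that of its isoform S100A4-201 held under all 12 alternatives, with log2 folds of 4.63 to 5.18 and 4.68 to 5.18. The alternatives were other scalings, no filter, limma-trend with no voom weights (added count 2), quality weights, ordinary moderation and each pool left out. S100A1, S100A2, S100A3 and S100A16 were not called under any of them and kept their direction. Listed members called higher numbered 2 with sample quality weights, and 1 to 2 with a pool left out, 2 being without lesion-free pool 4, where S100A10 was added. Uncalled log2 folds turned sign with a pool left out: S100A11 ran from -0.79 to 0.011 (positive without lesion pool 2), S100A14 from -0.054 to 0.78 (negative without lesion pool 1), and S100A11-002 from -0.76 to 0.42 (positive without lesion pool 2 or lesion-free pool 4). SELPLG lost its call without lesion-free pool 6 (limma adjusted p = 0.0607). Genes called higher, 113 in the fit, numbered 171 with no filter, 213 with quality weights and 55 to 150 with a pool left out. Genes called lower, 9 in the fit, numbered 17, 40 and 4 to 36 in the same settings. Isoforms called higher, 53 in the fit, numbered 101 with no filter, 86 with limma-trend, 92 with quality weights and 16 to 62 with a pool left out. Scaling by the plain library total moved the median log2 fold of all genes to 0.16, and the S100A4 fold of that setting is relative to it. The causes of these changes were not tested. In a pool where a gene has 0 counts, a level below the 3-count floor could not be seen. No paired analysis was possible, since lesion pools are of FH animals and lesion-free pools of normal animals, and the labels give no pairing.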
